A study of Mus musculus with 563 samples.

Results

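Migration and niche signal receptors of hematopoietic stem cells (HSCs) were described as a set of 8 named genes: S1pr1, Ptger4, Cxcr4, Calcrl, Ramp1, Ramp2, Gpr183 and Adgrg1. They were found by symbol among the 46078 gene entries of 2 deposited count tables, and all 8 were among the 10721 genes above the level filter. To pass it, a gene needed a mean of 10 reads per 1000000 (CPM) or more over the group sums, and reads in 10% or more of kept cells. The members were chosen by their levels in these groups, as earlier results of these data showed them, so their levels and differences are descriptions and carry no test. Ramp1 and Ramp2 encode accessory proteins with a single membrane span that work with the receptor encoded by Calcrl. The other members encode receptors that couple to G proteins.

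The cells were single bone marrow HSCs from mice carrying Gfp-Lc3, a transgene that joins green fluorescent protein to the autophagosome protein LC3. They were isolated at steady state, sorted into wells and sequenced with a Smart-seq2 protocol. Old cells fell into groups labelled LO, MID and HI, young cells formed the other group, and all groups carried the transgene. The labels give the ages as old and young, without a number, and do not say what LO, MID and HI rank. The kept cells of the first and second tables were 65 and 71 LO, 68 and 66 MID, 68 and 61 HI, and 63 and 71 young, or 533 of 563 cells. No label names an animal, so each group was 1 sample, the 2 tables were the only repeat within it, and no test between groups was made.

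Some facts of the cells bear on every value below. The summed nuclear gene reads of the groups were 18580222 to 25382151 per table, and the median cell of a group had 254723 to 340529. All 13 HSC markers on the list used here were read in over 20% of kept cells, and no 2 cell columns were identical. Xist, which is transcribed from an inactive X chromosome, had 20 or more reads in each of the 71 young cells kept from the second table, where 3 of 71 LO, 0 of 66 MID and 2 of 61 HI cells had as many. Only 1 of 63 kept young cells did in the first, so sex and age cannot be told apart in the second table. Reads of the eGFP transgene came to 399, 890 and 831 CPM in LO, MID and HI, against 972 CPM in young cells, and 10 kept LO cells had none.

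G protein receptors on HSCs read gradients of lipids, chemokines and peptides that hold the cells in the marrow niche or let them leave it. S1PR1 senses sphingosine 1-phosphate, which is high in blood, and CXCR4 senses CXCL12, the main retention signal of the niche. GPR183 senses oxysterols and positions B cells and dendritic cells in lymphoid tissue. PTGER4 is a prostaglandin E2 receptor that raises cyclic AMP. CALCRL needs a RAMP partner: with RAMP1 it forms the receptor for calcitonin gene-related peptide, and with RAMP2 a receptor for adrenomedullin. ADGRG1, also named GPR56, is an adhesion receptor that marks HSCs.

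Per kilobase of exon, the mean level over the groups was 483 CPM for Adgrg1, 101.8 for Ramp1, 20.99 for Calcrl, 15.6 for Gpr183, 13.1 for S1pr1, 9.51 for Ramp2, 9.43 for Ptger4 and 8.42 for Cxcr4. Adgrg1 spanned 407 to 574 CPM per kilobase over the 8 sums of group and table, and Ramp1 spanned 85.998 to 125.9. These ranges overlapped neither each other nor that of any other member. Calcrl spanned 14.8 to 24.9 CPM per kilobase and Gpr183 3.45 to 36.98, and the ranges of neighbours in the lower part of the order overlapped. Ramp2 spanned 1.01 to 20.2, a wider relative range than any other member's.

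S1pr1 lies on chromosome 3 at chr3:115710433-115715072 (GRCm38, minus strand). It had 75.6 and 45.5 CPM in LO cells, 35.8 and 36.5 CPM in MID cells, 29.7 and 18.8 CPM in HI cells, and 41.8 and 35.1 CPM in young cells, in the first and second tables. LO was the highest group and HI the lowest in each table, with young and MID between them. The old mean of 40.3 CPM stood beside 38.5 CPM in young cells, since LO lay above young and HI below it. Differences were taken on log2(CPM + 1) within each table and averaged. They were 0.60 in LO against young and -0.68 in HI against young. HI against LO gave -1.28, with -1.32 and -1.23 in the 2 tables.

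Cxcr4, at chr1:128588199-128592293 on the minus strand, ran the other way among the old groups. It had 8.23 and 13.6 CPM in LO cells, 19.04 and 16.3 CPM in MID cells, 14.9 and 21.8 CPM in HI cells, and 15.2 and 12.8 CPM in young cells. The LO level lay below both other old groups in each table, while LO and young cells overlapped. HI against LO was 0.71 on the log2 scale, with 0.79 and 0.64 in the 2 tables, and with cell means in place of sums it was 0.31. Old against young was 0.15, with opposite signs in the tables at -0.11 and 0.40.

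Gpr183, at chr14:121952551-121965195 on the minus strand, lies within Ubac2 on the other strand and shares 0 exon bases with it. It had 106.8 and 45.3 CPM in LO cells, 51.3 and 59.1 CPM in MID cells, 40.3 and 35.2 CPM in HI cells, and 13.4 and 9.96 CPM in young cells. Every old sum lay above both young sums. The old groups overlapped, since LO was highest in the first table and MID in the second. Old against young was 2.17 on the log2 scale, with 2.22 and 2.12 in the tables, with 56.3 CPM in old and 11.7 CPM in young cells. Ubac2 itself had 125.1, 127.7 and 126.2 CPM in LO, MID and HI, against 89.9 CPM in young cells.

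Ptger4, at chr15:5206661-5244187 on the minus strand, stepped down through the old groups. It had 124.3 and 79.8 CPM in LO cells, 65.6 and 70.7 CPM in MID cells, 45.8 and 42.6 CPM in HI cells, and 35.6 and 37.2 CPM in young cells. LO, MID, HI and young kept this order in each table, and none of the neighbours overlapped. Old against young was 0.95 on the log2 scale, with 1.12 and 0.78 in the tables, just under the bound of 1 used below. HI against LO was -1.15, with -1.42 and -0.89. The gene shares 82 exon bases with Ttc33 and 1015 of its 6648 with the pseudogene Gm15937, both on the other strand. Gm15937 had 0.0990 to 0.752 CPM over the groups.

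Calcrl, at chr2:84330626-84425411 on the minus strand, differed little. It had 119.2 and 101.7 CPM in LO cells, 88.7 and 107.7 CPM in MID cells, 105.9 and 72.4 CPM in HI cells, and 121.3 and 102.95 CPM in young cells. The 4 groups overlapped, and old against young was -0.17 on the log2 scale. Ramp1, at chr1:91179822-91225196 on the plus strand, had 344 and 278 CPM in LO cells, 260 and 287 CPM in MID cells, 275 and 279 CPM in HI cells, and 380.5 and 358 CPM in young cells. Each young sum lay above every old sum, with a difference of -0.36 for old against young (-0.38 and -0.35 in the tables). The old groups overlapped one another.

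Ramp2, at chr11:101246028-101259546 on the plus strand, differed most. It had 57.6 and 66.5 CPM in LO cells, 40.3 and 34.04 CPM in MID cells, 28.99 and 10.8 CPM in HI cells, and 3.33 and 9.56 CPM in young cells. LO, MID, HI and young kept this order in each table, and none of the neighbours overlapped. Old against young was 2.59 on the log2 scale, with 3.32 and 1.85 in the tables. The young sums held only 65 reads (exact 95% Poisson interval 50.2 to 82.8) and 213 reads (185 to 244), intervals that cover counting error alone. A single cell held 64.6% of the 65 and another 35.7% of the 213. Without the 3 cells highest for Ramp2 in each group and table, old against young was 3.35. Ramp2 shares 1103 of its 3301 exon bases with Vps25 on the same strand, which had 1.69, 0.811 and 1.08 CPM in LO, MID and HI, against 1.36 CPM in young cells. How reads in shared bases were assigned is not given in the sources used here.

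Adgrg1, at chr8:94974751-95014217 on the plus strand, was more abundant than 99.9% of tested genes in CPM. It had 2794 and 3113 CPM in LO cells, 2429 and 2971 CPM in MID cells, 2336 and 2498 CPM in HI cells, and 2208 and 2605 CPM in young cells. LO was highest in each table, but the groups overlapped across the tables. Old against young was 0.16 and HI against LO -0.29 on the log2 scale.

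**Figure D1:**
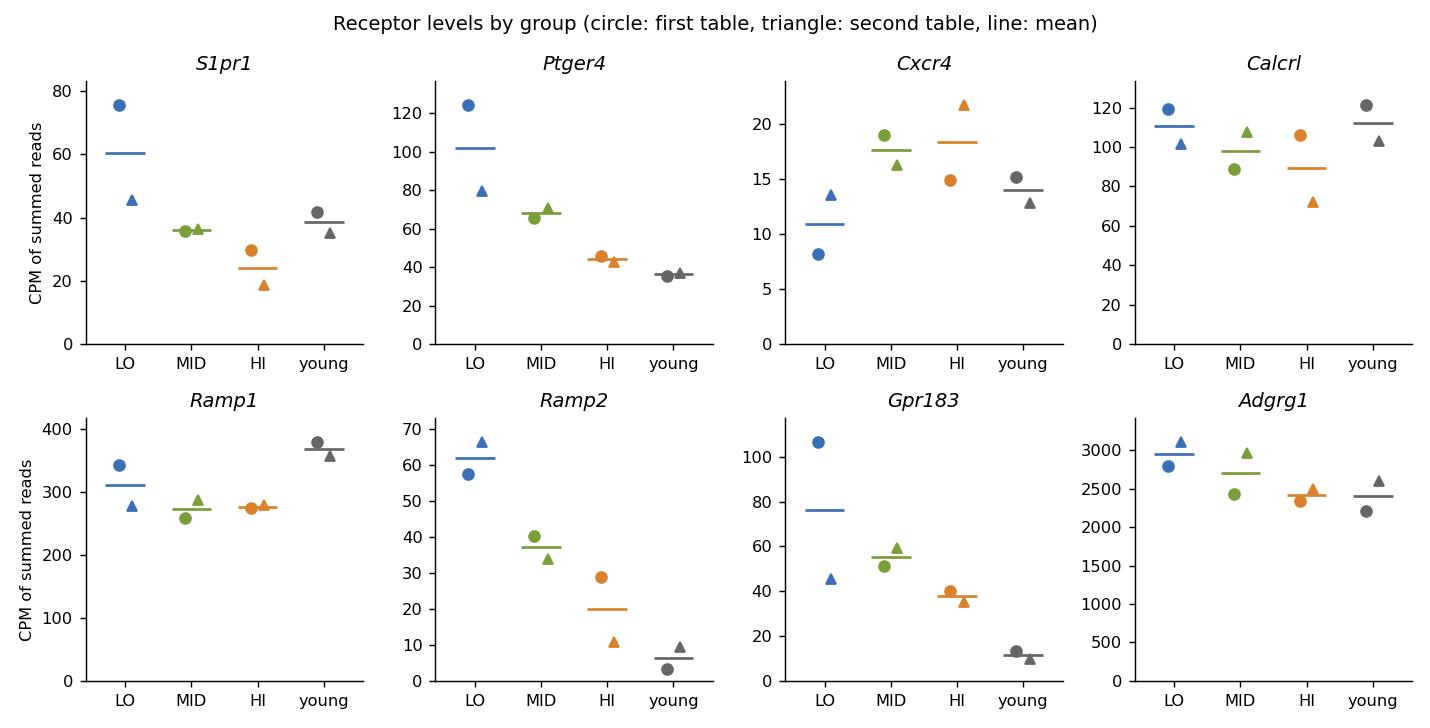
Level in CPM of each member, by group from LO to young. Circles are the sums of the first table, triangles those of the second and lines the mean. S1pr1, Ptger4 and Ramp2 step down from LO over MID to HI, while every old sum of Gpr183 lies above the 2 young sums.

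Of the 8 members, 6 had a promoter window in the RefSeq table of the GRCm38.p6 build, which runs from 250 bases before to 50 after a gene's start. They were Ptger4, Cxcr4, Calcrl, Ramp1, Gpr183 and Adgrg1, with 2 windows for Adgrg1. S1pr1 and Ramp2 had no entry. The windows of Ptger4 and Gpr183 are shown because each gene's mean level was highest in LO and higher in old than in young cells. The window of Cxcr4 is shown because Cxcr4 ran the other way among old cells. These windows lie at chr15:5244138-5244437, chr14:121965144-121965443 and chr1:128592250-128592549, all on the minus strand. Capitals mark matches, on either strand and with overlaps allowed, to the GC box GGGCGG, the TATA box TATAAA or the ETS site GGAAGT.
Ptger4: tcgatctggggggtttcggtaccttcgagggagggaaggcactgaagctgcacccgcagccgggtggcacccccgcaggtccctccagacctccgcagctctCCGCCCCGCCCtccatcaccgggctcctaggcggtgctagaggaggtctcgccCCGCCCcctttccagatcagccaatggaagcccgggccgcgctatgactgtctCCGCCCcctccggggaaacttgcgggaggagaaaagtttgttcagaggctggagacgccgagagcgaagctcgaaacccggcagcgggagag
Gpr183: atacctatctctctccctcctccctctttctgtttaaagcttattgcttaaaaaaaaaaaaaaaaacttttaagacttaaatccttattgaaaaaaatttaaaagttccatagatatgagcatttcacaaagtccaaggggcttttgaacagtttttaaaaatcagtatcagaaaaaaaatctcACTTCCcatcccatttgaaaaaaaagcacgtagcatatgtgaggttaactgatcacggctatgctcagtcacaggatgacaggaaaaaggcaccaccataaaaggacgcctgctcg
Cxcr4: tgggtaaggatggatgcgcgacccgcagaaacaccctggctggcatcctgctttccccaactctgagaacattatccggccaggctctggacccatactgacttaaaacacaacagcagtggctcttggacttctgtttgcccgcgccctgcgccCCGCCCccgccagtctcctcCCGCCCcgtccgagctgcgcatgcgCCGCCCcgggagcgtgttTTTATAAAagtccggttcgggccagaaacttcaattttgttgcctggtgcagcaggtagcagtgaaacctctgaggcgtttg
Ptger4 held 4 GC boxes and Cxcr4 held 3, a motif in 35.7% of the 32851 windows of that length, and Gpr183 held none. Cxcr4 alone of the windows shown matched the TATA box, with 2 overlapping matches in 1 stretch, a motif of 13.6% of windows. Gpr183 matched the ETS site once, as 23.8% of windows did. Further motifs were searched on both strands and had no match in these 3 windows. One was TGACG, the core of the cAMP response element, which 20.8% of all windows held, and another was the AP-1 site TGACTCA, which 5.20% held. The E-box searched was CACGTG, in 7.15% of windows, and the RUNX site searched was TGTGGT, in 16.8%. The GATA site was searched as AGATAA, in 11.2%. The matches describe letters and say nothing of binding.

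A size rule was used to count differences. A gene met it with a log2 difference of 1 or more in size that had 1 sign and reached 0.58 in both tables. The higher group also needed 20 CPM and, in both tables, reads in 20% of its cells with no cell holding over 20% of them. In old against young cells, Ramp2 and Gpr183 met it as higher, against 1.54% of all tested genes, and 0 members met it as lower, against 0.317%. In LO against young, Ramp2 (3.22), Gpr183 (2.49) and Ptger4 (1.43) met it as higher, against 1.26% of genes. In HI against young, Gpr183 (1.62) met it as higher, against 1.17%. In MID against young 0 members met it, against 0.961% higher and 0.392% lower. Ramp2 (2.49) and Gpr183 (2.16) missed it there because 1 cell held 37.9% of the Ramp2 reads of the first table, and 1 cell in each table held 22.2% of the Gpr183 reads.

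In HI against LO, S1pr1 (-1.28), Ptger4 (-1.15) and Ramp2 (-1.74) met the rule as lower, against 0.382% of genes, and 0 members as higher, against 1.59%. Gpr183 was at -0.87, with -1.38 and -0.35 in the tables, and missed it. In HI against MID 0 members met it, against 1.03% higher and 0.196% lower, and in MID against LO 0 members, against 0.0839% and 0.0373%. The comparisons share their LO, HI or young cells. The median member difference was 0.15 for old against young and -0.60 for HI against LO, where all tested genes had medians of 0.02 and 0.02. The members were chosen with these contrasts known, so nothing is read from the counts.

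**Figure D2:**
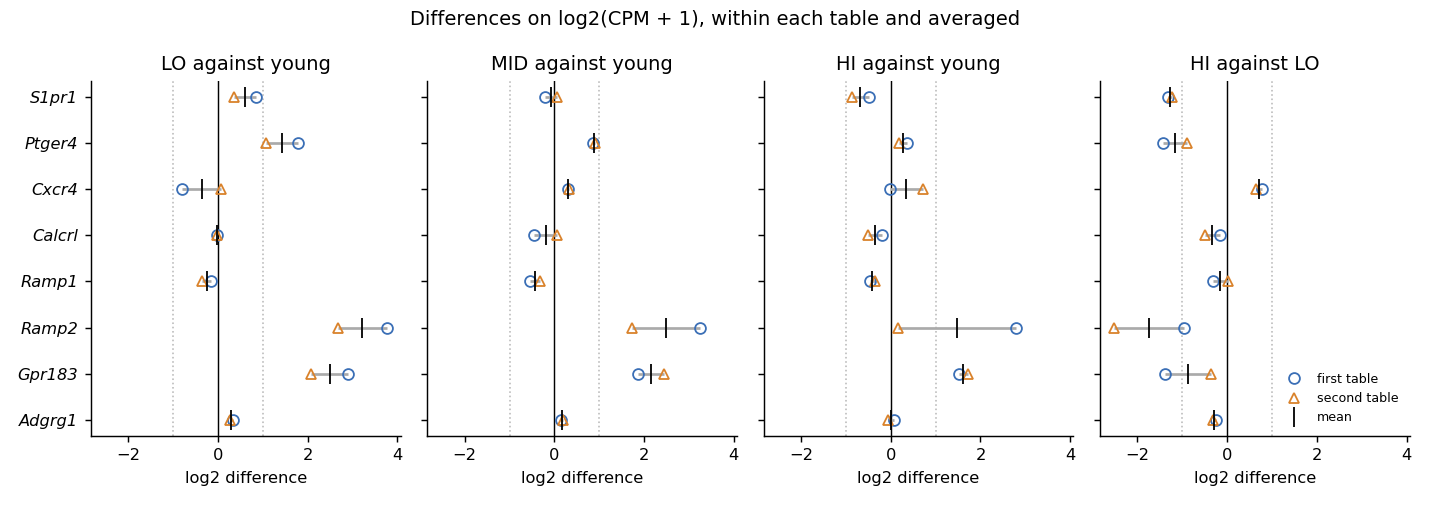
Log2 differences of CPM plus 1 for each member in 4 comparisons, with circles for the first table, triangles for the second, bars for their mean and dotted lines at 1 and -1. Ramp2 and Gpr183 lie right of 0 in each old group against young, and S1pr1, Ptger4 and Ramp2 lie left of 0 in HI against LO.

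The stepwise order could be read for all genes. S1pr1, Ptger4, Ramp2 and Adgrg1 had LO above MID above HI in each table, an order held by 4.63% of tested genes. The same 4 had LO as the highest of the 4 groups in each table, as did 7.70% of genes. With Calcrl and Gpr183 added, 6 members had LO above HI in each table, against 28.7% of genes. The Adgrg1 steps were small, with MID against LO at -0.20 and -0.07 on the log2 scale in the tables. The members were chosen by their levels in these same groups, so nothing is read from these counts.

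Shares of cells were compared at an equal depth of 100000 nuclear reads per cell, drawn at random, and shallower cells were left out. Gpr183 was read in 56.1% of LO, 41.7% of MID, 41.5% of HI and 20.3% of young cells. In the first and second tables these shares were 70.2% and 43.9% in LO, 46.2% and 37.1% in MID, 41.5% and 41.4% in HI, and 27.1% and 14.5% in young cells. Young was lowest in each table, though the exact 95% interval of young cells in the first (16.4% to 40.3%) overlapped those of MID and HI. Ramp2 was read in 34.1% of LO, 22.8% of MID, 26.02% of HI and 12.5% of young cells. By table it was 38.6% and 30.3% in LO, and 6.78% and 17.4% in young cells, and in the second the LO interval (19.6% to 42.9%) overlapped the young one (9.32% to 28.4%). At full depth Ramp2 was read in 39.7% of LO, 30.6% of MID, 31.01% of HI and 15.7% of young cells.

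Ptger4 was read in 60.98% of LO, 57.5% of MID, 55.3% of HI and 41.4% of young cells. The old groups thus lay close in the share of cells, while their CPM differed more. Among cells with a read at full depth, the median Ptger4 level was 93.4, 58.98 and 38.8 CPM in LO, MID and HI, against 60.01 CPM in young cells. The young median was 37.3 CPM in the first table, below each old group. In the second it was 73.6 CPM, close to MID (74.01 CPM) and above HI (32.9 CPM). S1pr1 was read in 49.6% of LO, 40.9% of MID, 37.4% of HI and 41.4% of young cells. By table it was 59.6% and 40.9% in LO, 33.8% and 48.4% in MID, 44.6% and 29.3% in HI, and 35.6% and 46.4% in young cells. LO was thus highest in the first table only, and lay below MID and young cells in the second. The full-depth S1pr1 median among cells with a read was 63.3, 42.8 and 25.9 CPM in LO, MID and HI, against 34.4 CPM in young cells. Young cells lay below HI in the first table (39.2 and 45.3 CPM) and above it in the second (32.4 and 17.2 CPM).

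At full depth, the Ramp2 median among cells with a read was 93.7, 41.9 and 32.4 CPM in LO, MID and HI. In young cells it was 7.33 CPM, with 35.8 CPM in the first table (5 cells) and 7.01 CPM in the second (16 cells). The young median thus lay between MID (22.9 CPM) and HI (41.5 CPM) in the first table, and was lowest only in the second. Cxcr4 was read in 26.8% of LO, 40.2% of MID, 42.3% of HI and 36.7% of young thinned cells. Its full-depth median among cells with a read stayed between 19.03 and 21.4 CPM. Calcrl was read in 78.05% to 82.1% of cells over the groups and Ramp1 in 91.9% to 95.9%. Adgrg1 was read in every thinned cell.

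**Figure D3:**
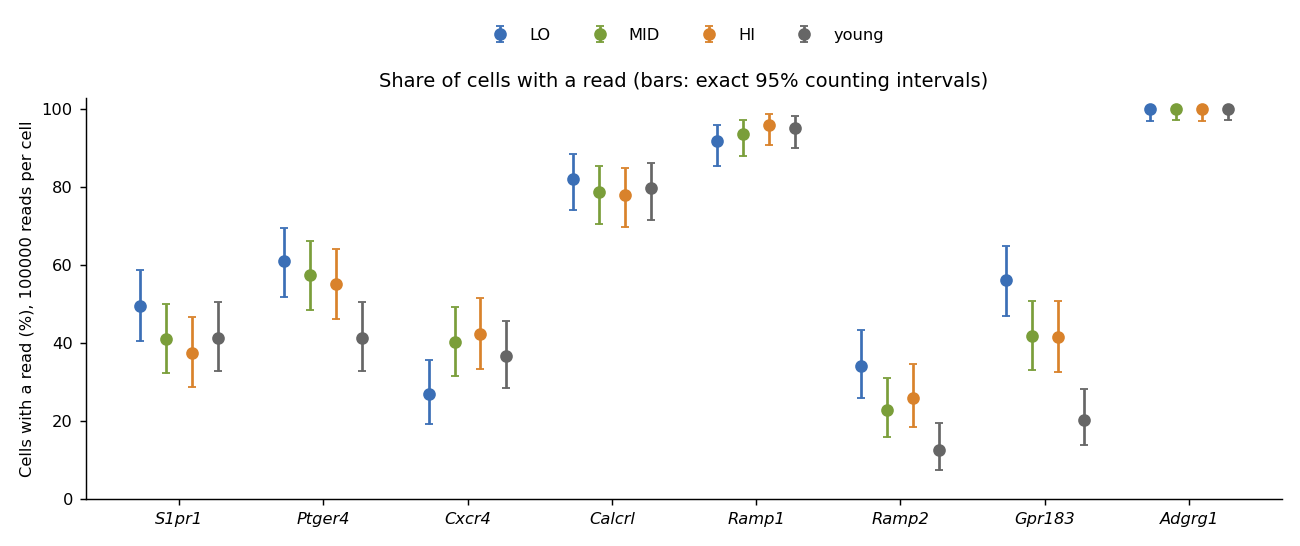
Percent of cells with a read of each member after thinning to 100000 reads, from LO to young, with exact 95% intervals that cover counting error only. Gpr183 and Ramp2 are read in the lowest share of cells in young, and Adgrg1 in 100% of cells in each group.

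Single cells spread widely within each group. S1pr1 ranged from 0 to 712 CPM over LO cells (median 9.91), from 0 to 327 over MID cells (median 0), from 0 to 330 over HI cells (median 0), and from 0 to 419 over young cells (median 0). Gpr183 reached 915 CPM in the highest LO cell, 630 in MID and 521 in HI, against 97.5 CPM in the highest young cell. Adgrg1 was even by comparison, with medians of 2600, 2468 and 2224 CPM in LO, MID and HI, and 2375 CPM in young cells, and a lowest cell of 186 CPM.

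Because CALCRL binds different ligands with each RAMP, the genes were read together in single thinned cells. Calcrl with both Ramp1 and Ramp2 was read in 26.02% of LO (32 cells), 18.1% of MID (23 cells), 18.7% of HI (23 cells) and 8.59% of young cells (11 cells). By table the share was 35.1% and 18.2% in LO, 16.9% and 19.4% in MID, 24.6% and 12.1% in HI, and 6.78% and 10.1% in young cells. Young was lowest in each table, but in the second the young interval (4.18% to 19.8%) overlapped that of LO (9.76% to 29.6%). Calcrl with Ramp1 and without Ramp2 was read in 50.4% of LO, 55.1% of MID, 55.3% of HI and 66.4% of young cells. Ramp2 reads occurred with and without Calcrl reads. In LO Ramp2 was read in 35.6% of cells with a Calcrl read (26.4% to 45.8%) and 27.3% of cells without one (10.7% to 50.2%), and the intervals overlapped.

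**Figure D4:**
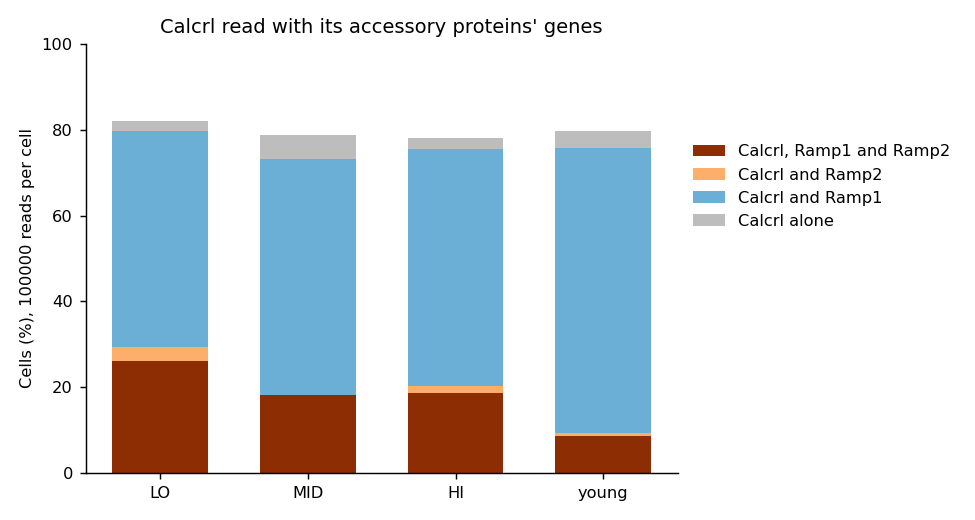
Stacked percent of thinned cells with a Calcrl read, from LO to young, split by which of Ramp1 and Ramp2 was read with it. The share with all 3 genes is 26.02% in LO and 8.59% in young cells, while the full height stays between 78.05% and 82.1%.

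The 4 members with large differences, S1pr1, Ptger4, Ramp2 and Gpr183, were also counted together. They were picked for differences in these same cells, so the joint counts follow in part from the share of each gene. No count expected from the single shares was computed, so nothing is read from the order of the groups. All 4 were read in 16 LO cells (13.01%), 6 MID cells (4.72%), 6 HI cells (4.88%) and 0 young cells, where a count of 0, taken as up to 3 cells of the total, allows a share of up to 2.34%. Of the 16 LO cells, 13 were among the 57 of the first table and 3 among the 66 of the second. At least 2 of the 4 were read in 65.9% of LO, 54.3% of MID, 48.8% of HI and 32.8% of young cells. Within LO, Gpr183 was read in 71.4% of cells with Ramp2 (30 of 42) and 48.1% of cells without it (39 of 81), with intervals of 55.4% to 84.3% and 36.9% to 59.5%. Their Spearman correlation over thinned LO cells was 0.27, the highest of any pair of members in any group, and is weak in counts this sparse.

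Cells differed in cycling between the groups. Cells with at least 8 genes of the G2 and M phases read after thinning made up 4.88% of LO (6 cells), 7.87% of MID (10), 34.96% of HI (43) and 14.1% of young cells (18). Within HI, cycling cells were lower than the other cells for most members. S1pr1 had 15.6 CPM in cycling and 35.1 in other HI cells, Ptger4 29.8 and 51.8, Ramp2 11.6 and 26.4, and Gpr183 19.8 and 51. Adgrg1 had 1808 CPM in cycling and 2694 in other HI cells. Cxcr4 was higher in cycling HI cells, at 22.3 against 13.9 CPM, and was read in 62.8% of them (27 of 43) against 31.3% of the others (25 of 80).

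In LO, with only 6 cycling cells, Cxcr4 had 10 CPM in cycling and 10.8 in other cells. Young cells had the same order as HI. Cxcr4 had 30 CPM in cycling and 12.5 in other young cells, and was read in 72.2% (13 of 18) against 30.9% (34 of 110). S1pr1 had 14.4 CPM in cycling and 45 in other young cells, and Adgrg1 had 1731 and 2555. Gpr183, at 7.78 in cycling and 9.27 in other young cells, had overlapping intervals there.

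Among thinned cells that were not cycling, the HI level lay below the LO level for every member but Cxcr4. S1pr1 had 35.1 CPM in other HI and 65.6 in other LO cells, Ptger4 51.8 and 90.8, Ramp2 26.4 and 68.03, and Gpr183 51 and 83.6. Calcrl had 106.1 CPM in other HI and 128.2 in other LO cells, Ramp1 293.6 and 311, and Adgrg1 2694 and 2894. Cxcr4 had 13.9 CPM in other HI and 10.8 in other LO cells. The sums were also taken without cells that had at least 8 G2 and M phase genes read before thinning. At that unequal depth this left out 9 LO, 13 MID, 49 HI and 30 young cells. HI against LO was then -1.07 for S1pr1, -0.94 for Ptger4, -1.21 for Ramp2 and 0.54 for Cxcr4 on the log2 scale. It was -0.42 for Gpr183, -0.23 for Calcrl, -0.03 for Ramp1 and -0.08 for Adgrg1, and S1pr1 alone still met the size rule. With all kept cells the Gpr183, Ramp1 and Adgrg1 differences were -0.87, -0.16 and -0.29, more than 1.5 times as large.

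**Figure D5:**
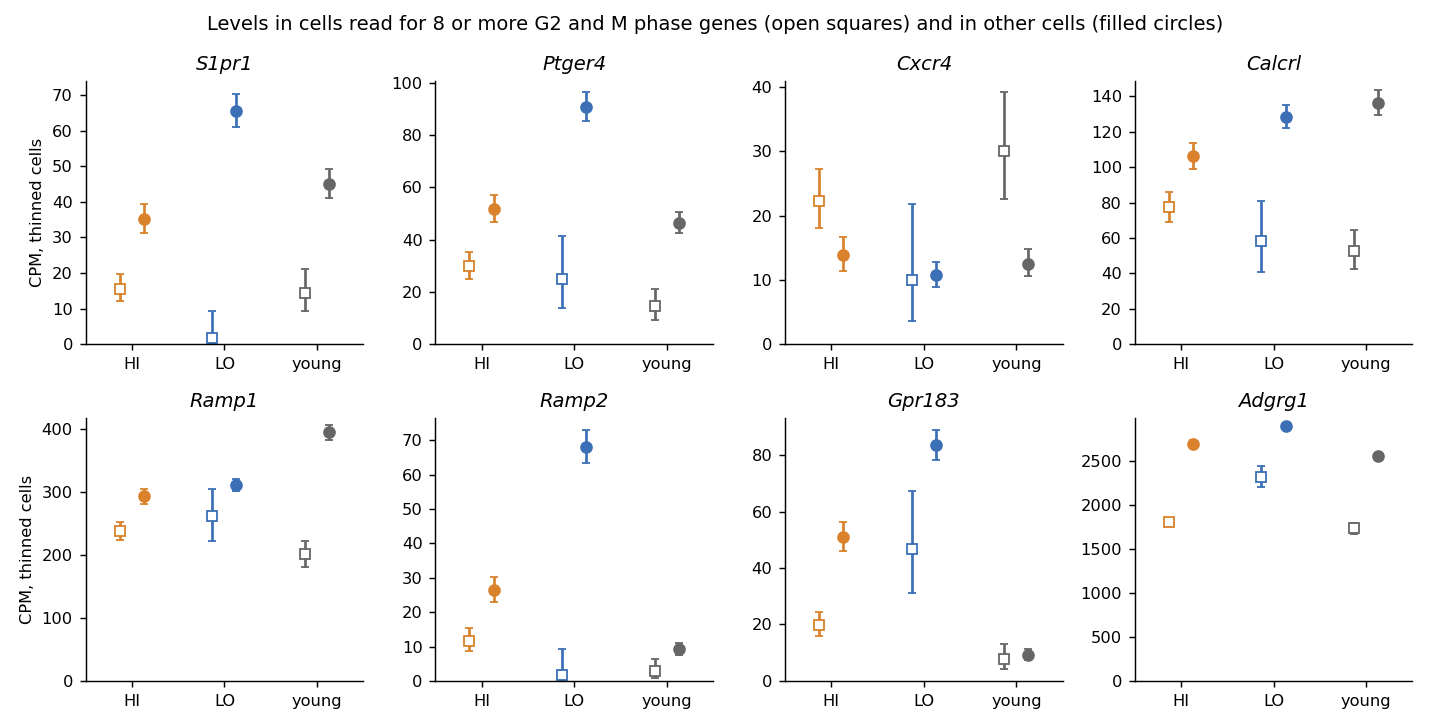
Level in CPM of each member in thinned cells of HI, LO and young, with open squares for cycling cells, filled circles for other cells and exact 95% Poisson intervals. Cxcr4 is higher in cycling than in other HI and young cells, and Adgrg1 is lower in cycling cells of each group shown. In LO, with 6 cycling cells, the Cxcr4 intervals overlap, at 10 and 10.8 CPM. MID is not drawn.

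Markers of other cell types were summed beside these results. The 10 endothelial markers summed to 308 to 369 CPM in LO, 168 to 300 in MID, 119.4 to 149 in HI and 98.9 to 109.01 in young cells. Cldn5, a tight junction gene, made up most of the sum in LO, MID and HI and ran in the order of Ramp2 and Ptger4, with 299, 178 and 98.1 CPM in LO, MID and HI, against 28.9 CPM in young cells. Cdh5, the defining endothelial cadherin, was at 0 in LO and at most 0.0990 CPM elsewhere, with reads in 1.13% of kept cells. Kdr, a receptor gene, ran as Cldn5 did, at 19.2, 17.8 and 9.39 CPM in LO, MID and HI, against 7.72 CPM in young cells. Emcn, an endothelial surface mucin, ran another way, at 12.4, 26.8 and 21.2 CPM in LO, MID and HI, against 56.3 CPM in young cells. The remaining markers of that list stayed at or under 6.56 CPM in each group. The 8 dendritic cell markers summed to 946 to 1123 CPM in LO, 1189 to 1435 in MID, 683 to 1218 in HI and 340 to 412 in young cells. Both class II antigen presentation genes of that list made up most of the sum, Cd74 with 635.6, 838 and 524 CPM in LO, MID and HI, against 197 CPM in young cells, and H2-Ab1 with 293, 386 and 334 CPM, against 106.05 CPM. Clec9a had 30.3, 12.4 and 17.5 CPM in LO, MID and HI, against 5.77 CPM in young cells. Bst2 had 71.1, 70.7 and 54.4 CPM in LO, MID and HI, against 54.9 CPM in young cells. Irf8, a dendritic cell transcription factor, had 4.47, 4.85 and 19.1 CPM in LO, MID and HI, against 12.3 CPM in young cells. Siglech, Xcr1 and Itgax had at most 0.847 CPM in any group. The part of these genes' cells in the differences was not tested. With cells left out that held 3 or more of the rarer markers of another type, a choice made after seeing the data, Ramp2 stood at 2.44 and Gpr183 at 2.39 for old against young. For HI against LO in that setting, S1pr1 (-1.45) and Ptger4 met the size rule as lower. Ramp2 stayed below 0 there but no longer met the rule.

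Other genes of the same signals were read for context, from lists of 4 to 30 genes. Of all tested genes, 1.54% met the size rule as higher and 0.317% as lower in old against young cells. In HI against LO these shares were 1.59% and 0.382%. The lists were chosen with earlier results of these data known, so nothing is read from their counts. Of 12 sphingosine 1-phosphate genes 6 passed the level filter, and 0 met the size rule in old against young or HI against LO. S1pr2, another receptor of the lipid, had 26.1, 32.9 and 45.6 CPM in LO, MID and HI, against 31.8 CPM in young cells, with a difference of 0.91 in HI against LO that was 0.35 in the first table and 1.46 in the second. Spns2, a transporter that exports the lipid, had 268, 238 and 268 CPM in LO, MID and HI, against 316 CPM in young cells. Of 13 prostaglandin E2 genes 8 passed and 0 met the rule. Ptger3, another prostaglandin E2 receptor, had 92.1, 86.4 and 108.4 CPM in LO, MID and HI, against 62.3 CPM in young cells. Ptger2 was at most 0.0788 CPM in any group.

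Of 9 CXCL12 genes 7 passed. Dpp4, a peptidase that cuts CXCL12, met the rule as lower in old cells, at 17.2 CPM against 44.6 CPM in young cells (-1.34). Of 7 further calcitonin receptor family genes 1 passed, the component gene Crcp. Ramp3, Calcr and the ligand genes Adm, Adm2, Calca and Calcb stayed at or under 0.863 CPM in each group. Of 4 oxysterol genes 3 passed and 0 met the rule. Cyp27a1, an oxysterol-making enzyme, had 13.8, 10.4 and 2.24 CPM in LO, MID and HI, against 18.6 CPM in young cells, under the 20 CPM that the rule asked for. Ch25h, which makes a precursor of the GPR183 ligand, had 0.697 CPM in LO and 0 elsewhere.

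Of 10 adhesion receptor genes and ligands 7 passed, and Tgm2, whose product binds ADGRG1, met the rule as higher in old cells. It had 724 CPM in old and 343 CPM in young cells (1.08). Of 30 other G protein receptors 16 passed and 3 met the rule as higher in old cells, against 1.54% of all tested genes. Tbxa2r, the thromboxane receptor, had 83.4 CPM in old and 17.5 CPM in young cells. Cysltr2, a leukotriene receptor, had 70.5 CPM in old and 20.2 CPM in young cells. Chrm3, a muscarinic acetylcholine receptor, had 23.1 CPM in old and 0.400 CPM in young cells. None of the 16 met the rule in HI against LO.

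Of 15 G protein subunits 14 passed. Gna11, a subunit of the Gq family, was the 1 that met the rule, as higher in HI than LO cells, at 51.7 CPM and 25.5 CPM (1.06). Of 20 receptor regulators 17 passed, and Rgs2, which dampens Gq signals, met the rule as lower in old cells, at 22.8 CPM against 54.3 CPM in young cells (-1.21). List medians lay between -0.16 and 0.60 for old against young and between -0.27 and 0.21 for HI against LO, beside 0.02 and 0.02 for all genes.

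Genes with the most similar pattern were named by Pearson correlation over the 8 sums of log2(CPM + 1), centred within each table, among 1218 genes that spanned at least 1 log2 unit in each table. These are descriptions over 8 sums that share tables and cells. Tcp11l2 was closest to S1pr1 (0.97), Bmp4 to Ptger4 (0.96), Zfp873 to Cxcr4 (0.94) and Kremen1 to Calcrl (0.97). Socs2 was closest to Ramp1 (0.98), Socs3 to Ramp2 (0.97), Col16a1 to Gpr183 (0.99) and Vwa5a to Adgrg1 (0.97). Socs3, an inhibitor of cytokine signals, had 113.3, 70.5 and 52.5 CPM in LO, MID and HI, against 16.4 CPM in young cells. Bmp4, a secreted growth factor, had 48.6, 32.8 and 15.9 CPM in LO, MID and HI, against 10.6 CPM in young cells. Vwa5a and Cd38 were among the 3 closest genes of both Ptger4 and Adgrg1. Among members, Ptger4 and Adgrg1 had the highest correlation (0.96) and S1pr1 and Cxcr4 the lowest (-0.87).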

How the data were processed

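Single-cell RNA was measured in 563 sorted HSCs, each deposited as 1 sample. The 2 deposited tables hold raw counts of reads for each gene, without molecular identifiers or scaling. Builds and tools in the submitters' processing notes are mm10 (GRCm38), featureCounts 2.0.0, Subread, DESeq2 and STAR 2.7.3a, with no roles. Symbols came from GENCODE M21, which matched 45229 of 46078 entries. Reads given to no gene (34.8% and 31.5% without a feature, 38.7% and 38.8% not aligned, 3.80% and 4.26% ambiguous) and spike-ins (0.401% and 0.465%) were left out.

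Cells were kept with at least 50000 nuclear gene reads, 1000 genes and no more than 20% mitochondrial reads, and 30 were not. Kept cells were summed by group and table and scaled to CPM with TMM factors (edgeR 4.0.16, R 4.3.3). The old level averages those of LO, MID and HI. Drawing 100000 reads per cell left 501 cells: 123 LO, 127 MID, 123 HI and 128 young. Shares carry exact Clopper-Pearson intervals and sums exact Poisson ones, for counting error only, since reads are not independent molecules. No doublets were called and no clusters made. Other steps used SciPy 1.17.1, matplotlib 3.10.9, pandas 2.3.3 and NumPy 2.4.6 in Python 3.11.15, and the differences were tested on simulated data.

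The members, gene lists and rules were chosen with earlier results of these data known. Named are the members, list genes that met the size rule or were among the 2 highest or lowest of their list, the 3 genes closest to each member, and overlapping genes. Ptger2, Ramp3, Calcr, Adm, Adm2, Calca, Calcb, Ch25h, Cldn5 and Cdh5 were added after their values were seen. Kdr, Emcn, Cd74, H2-Ab1, Clec9a, Bst2, Irf8, Siglech, Xcr1 and Itgax also fell outside the naming rule, which gave marker lists as counts. Alternatives covered scaling (with DESeq2 1.42.0 size factors), pseudocount, filters, summary over cells, cell subsets, tables, thinning depth and detection threshold.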

Additional observations from a re-analysis of the deposited data

Results flagged for a closer look

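S1pr1 was the member whose difference from young cells had opposite signs in old groups, in both tables. It was 0.60 on the log2 scale in LO against young, with 0.84 and 0.36 in the tables, and -0.68 in HI against young, with -0.48 and -0.87. The comparisons share the young cells, and the difference between them was not tested.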

How the results depend on the processing

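Each member's difference was recomputed under 16 alternatives. Old against young stayed above 0 for Ramp2 (1.62 to 3.35) and Gpr183 (1.60 to 2.82), which met the size rule in 15 of 16, all but the stricter level filter. It also stayed above 0 for Ptger4 (0.73 to 1.14), which met the rule in 3. HI against LO stayed below 0 for S1pr1 (-1.45 to -1.03, met in 15), Ptger4 (-1.42 to -0.89, met in 14) and Ramp2 (-2.52 to -0.97, met in 10). Small differences changed sign for S1pr1 (-0.06 to 0.25) and Cxcr4 (-0.12 to 0.40) in old against young and Ramp1 (-0.32 to 0.01) in HI against LO.

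With the stricter level filter (50 CPM, 25% of cells), which S1pr1, Ramp2, Gpr183 and Cxcr4 did not pass, 0 members were higher in old cells against 2, and 1 was lower in HI than LO against 3. As percent of the 10721 genes, 0.616% were then higher and 0.103% lower in old against young, and 0.672% and 0.149% in HI against LO. The main values were 1.54% and 0.317%, and 1.59% and 0.382%. Without cells cycling by the count before thinning, 1 member was lower in HI than LO, and 0.0466% of genes were higher. A pseudocount of 10 CPM gave 0.970% and 0.196% for old against young and 0.177% lower in HI. Without cells with 20 Xist reads, in the first table, old against young gave 2.63% and 0.681%. The first table alone gave 2.47% and 0.737%, then 2.58% and 1.47%, and the second 2.73% and 1.04%, then 3.95% and 1.48%, since agreement of tables was no longer asked for. For the other moves the cause was not tested.

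Shares moved past their intervals in 24 of 32 values when 5 reads were asked for and in 4 of 32 at 50000 reads. Leaving out cells with 3 markers of other blood types kept 51 cells, and was not run. No paired analysis was possible because each number in the labels names 1 cell and pairs nothing across groups. Depth limits members with few reads, such as Ramp2, with 65 reads in young cells of the first table.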
